A study of Rattus norvegicus with 47 samples.

Results

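The proximal tubule of the kidney takes back from the filtrate nearly all glucose, amino acids and small peptides, and 10 transporter genes of that step are described here in kidneys of rats that carried metal pellets. They are Slc5a2, Slc5a1 and Slc2a2 for glucose, Slc6a19, Slc7a7, Slc7a9 and Slc3a1 for amino acids, Slc15a1 and Slc15a2 for peptides, and Slc5a12, which carries lactate and other monocarboxylates rather than glucose, amino acids or peptides. All 10 were found among 22525 genes of the deposited count table, and all 10 were among the 15868 genes with enough counts to test.

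Kidney RNA was sequenced 12 months after surgery in rats that had been given pellets of 1 of 6 metals: lead (Pb), depleted uranium (DU), aluminum (Al), tungsten (W) and cobalt (Co), with tantalum (Ta) as the last. Each pellet was a cylinder of 1 mm diameter and 2 mm length. There were 8 libraries each for W, Co, Al, DU and Ta and 7 for Pb, and each library carries its own animal number. Ta, described by the submitters as inert, was the metal all others were set against, so every animal carried a pellet. Strain, sex, age and the number of pellets are not given in the sources used here.

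Reabsorption of glucose is shared along the tubule. SGLT2, the product of Slc5a2, takes up most of it in the early convoluted segments (S1 and S2), SGLT1 (Slc5a1) recovers the rest in the later straight segment (S3), and GLUT2 (Slc2a2) lets it out into the blood. Neutral amino acids enter through B0AT1 (Slc6a19). Cystine and the cationic amino acids enter through a pair of proteins, the carrier b0,+AT (Slc7a9) and its partner rBAT (Slc3a1), whose loss causes cystinuria in humans, and the cationic ones leave through y+LAT1 (Slc7a7). In rat kidney PEPT1 (Slc15a1) lies early and PEPT2 (Slc15a2) late in the proximal tubule. SMCT2 (Slc5a12) is a low-affinity sodium-coupled monocarboxylate carrier of the early segments.

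Total counts were 21604755 to 35775818 per library, with a median of 26363810. Levels are given in CPM, counts relative to the TMM-scaled library total in the usual unit, which can be compared between libraries for 1 gene but not between genes, because transcript lengths were not used. Depth limits counting error, while the tests use the variation among animals. DU replicate 6 stood apart, with 8230 CPM of the tubule injury marker Lcn2, 1180 CPM of the injury marker Havcr1 and 13 CPM of the S3 marker Slc7a13. DU replicate 5 had 96.2 CPM of Slc7a13 and Ta replicate 4 had 364 CPM, against 510 to 2160 CPM in the other DU libraries and 1460 to 3090 CPM in the other Ta libraries. In RNA of whole kidney tissue, fewer cells of a type and less RNA per cell cannot be told apart.

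Promoter sequences of all 10 genes, from 250 bases before to 50 after the start, were matched by symbol in RefSeq (build GRCr8). They were searched on both strands for sites of HNF1, the homeodomain factors that keep many proximal tubule genes active, and of HNF4, the nuclear receptor of the same epithelium. The 4 promoters below are shown because their genes follow the early and late patterns that the results turn on and each holds a match to an HNF1 motif, in capitals. For Slc5a2, Slc5a12 and Slc3a1 the capitals are the HNF1 palindrome GTTAATNATTAAC with 3 mismatches, and for Slc6a19 they are an exact copy of the HNF1 core, GTTAAT, read on the opposite strand.
Slc5a2, chr1:192277371-192277670, strand +: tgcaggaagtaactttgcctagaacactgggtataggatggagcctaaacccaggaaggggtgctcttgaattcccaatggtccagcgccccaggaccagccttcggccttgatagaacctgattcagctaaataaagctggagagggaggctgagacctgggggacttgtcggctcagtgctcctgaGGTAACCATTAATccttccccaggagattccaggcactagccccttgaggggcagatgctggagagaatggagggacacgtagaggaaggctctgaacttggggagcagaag
Slc5a12, chr3:117633637-117633936, strand +: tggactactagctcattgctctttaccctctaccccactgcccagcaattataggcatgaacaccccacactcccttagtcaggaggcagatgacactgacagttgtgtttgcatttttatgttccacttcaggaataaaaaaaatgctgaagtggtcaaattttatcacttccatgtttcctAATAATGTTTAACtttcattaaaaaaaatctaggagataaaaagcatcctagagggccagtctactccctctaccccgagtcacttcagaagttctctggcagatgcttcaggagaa
Slc6a19, chr1:31414494-31414793, strand +: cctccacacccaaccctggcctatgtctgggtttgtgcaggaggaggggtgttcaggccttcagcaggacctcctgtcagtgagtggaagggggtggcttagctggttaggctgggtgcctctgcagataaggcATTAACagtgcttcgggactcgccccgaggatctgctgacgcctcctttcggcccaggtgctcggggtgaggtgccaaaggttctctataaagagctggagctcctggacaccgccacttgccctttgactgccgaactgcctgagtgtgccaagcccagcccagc
Slc3a1, chr6:15394700-15394999, strand -: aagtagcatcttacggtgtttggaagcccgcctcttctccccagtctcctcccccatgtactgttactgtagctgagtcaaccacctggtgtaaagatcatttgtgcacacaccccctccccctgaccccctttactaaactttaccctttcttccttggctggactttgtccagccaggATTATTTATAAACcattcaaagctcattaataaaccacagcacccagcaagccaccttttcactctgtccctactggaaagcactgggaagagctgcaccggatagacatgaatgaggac
With up to 3 mismatches the palindrome was found in 4 of the 10 promoters, those of Slc5a2, Slc5a12, Slc3a1 and Slc7a9, and in 8.72% of all 33469 promoters of this length in the RefSeq table. Slc7a9 held the closest match, with 2 mismatches. The matches of Slc5a2, Slc5a12 and Slc3a1 began 62, 67 and 70 bases before the start, and a palindromic match reads as a match on both strands at one place. The exact core was found in 1 of 10 promoters, that of Slc6a19, and in 7.45% of all. The HNF4 letters CAAAGTCCA, with up to 1 mismatch, were found in 1 of 10, that of Slc3a1 on the opposite strand with no mismatch, and in 8.67% of all. Matches occurred both in genes that fell with Pb and in Slc3a1, which rose.

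Against Ta, the 10 genes were changed most often in Pb kidneys, where 6 passed the threshold of an adjusted p of 0.05 (two-sided quasi-likelihood test in edgeR, adjusted over all tested genes by Benjamini and Hochberg). Of these, Slc3a1 rose and Slc5a2, Slc5a1, Slc5a12, Slc6a19 and Slc15a1 fell. The share of all tested genes called in Pb was 53.7%, with 24.5% higher and 29.2% lower, so 6 of 10 is close to the background. In Co kidneys 1 of 10 was called, Slc3a1 higher, where 25.8% of all genes were called and 13.6% were higher. In DU kidneys 1 of 10 was called, Slc15a2 lower, where 15.3% of all genes were called and 7.39% were lower. None of the 10 was called by edgeR in W kidneys, where 1.78% of all genes were called, or in Al kidneys, where 25.2% were. At an unadjusted p under 0.05 there was 1 in W and there were 5 in Al, and the share of all genes at that level was not counted. DESeq2 called 0 of the 10 in W, where it called 532 genes higher and 232 lower. In Al it called 1 of the 10, where it called 2242 genes higher and 2124 lower. When only the Al and Ta libraries were fitted, edgeR called 5 of the 10 in Al, all lower (Slc5a2, Slc5a12, Slc6a19, Slc7a7 and Slc15a1), and 29.7% of all genes. The median log2 fold change of the 10 genes was -0.79 in Pb, -0.62 in Al, -0.50 in Co, -0.04 in W and 0.28 in DU. Over all tested genes it was -0.07 in Pb, -0.04 in Al, -0.07 in Co, -0.03 in W and -0.01 in DU.

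The comparisons with Ta share the 8 Ta libraries. A test over the 6 metals together called 7 of the 10 genes (58.4% of all genes), and a test over the 5 metals without Ta called the same 7 (53.2% of all genes). The 3 not called in either were Slc5a1, Slc2a2 and Slc7a9. For each of the 10 genes, groups that were neighbours in the order of mean level overlapped library by library. DU had the highest mean of the 6 metals for 7 genes, namely Slc5a2, Slc2a2, Slc5a12, Slc6a19, Slc7a7, Slc7a9 and Slc15a1, and Pb had the lowest for 5, namely Slc5a2, Slc5a1, Slc5a12, Slc6a19 and Slc15a1. Slc3a1 had its highest mean in Pb and its lowest in DU, and Slc15a2 had its highest in W and its lowest in DU.

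**Figure D1:**
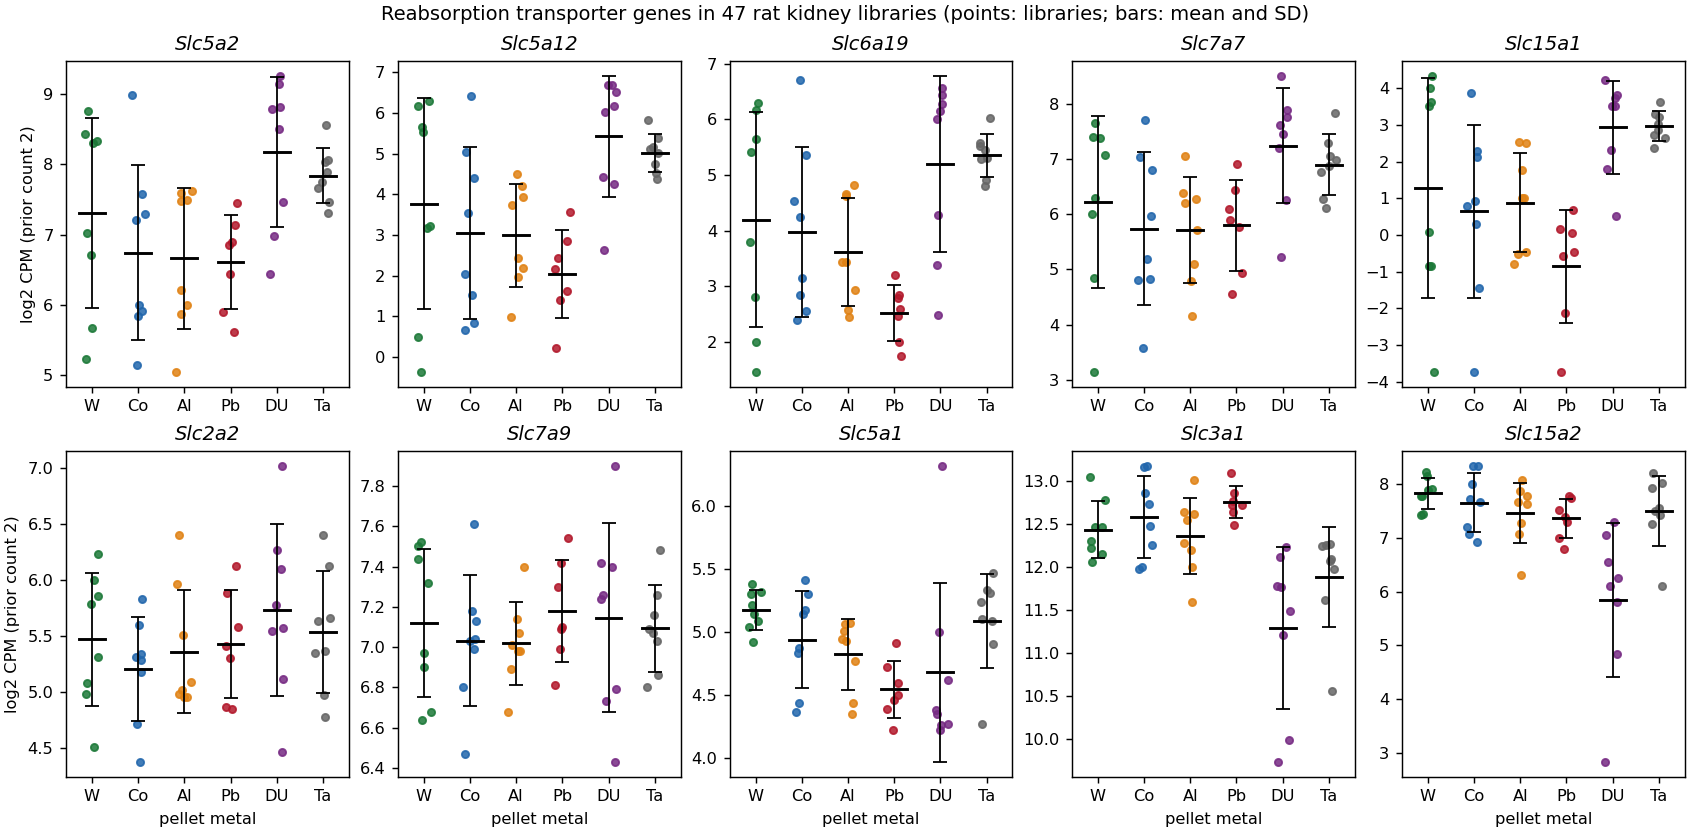
Log2 CPM (prior count 2) of each of the 10 genes in every library, by pellet metal; each point is 1 library, the thick line is the group's mean of log2 CPM and the thin bar its SD. The Pb points of Slc5a12, Slc6a19 and Slc15a1 lie below every Ta point, and those of Slc3a1 lie above every Ta point.

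Slc5a2, the main glucose carrier of the early tubule, was lower in Pb kidneys than in Ta kidneys. Its lowest, median and highest values were 49.1, 116 and 175 CPM in Pb and 159, 228 and 378 CPM in Ta. The highest Pb library overlapped the lower Ta libraries, and the other 6 lay below every Ta library. Mean levels were 107 ± 44.9 CPM in Pb (SD, n = 7) and 237 ± 68.4 CPM in Ta (SD, n = 8), a log2 fold change of -1.15 ± 0.49 (SE; edgeR adjusted p = 0.0423). The call was lost when any 1 of Pb replicates 2, 3, 5, 6 and 7 or Ta replicates 3, 4, 5 and 7 was left out, with edgeR adjusted p of 0.051 to 0.0882. Rusf1, which overlaps Slc5a2 in the GRCr8 annotation, changed the other way, by a log2 fold change of 0.22 in Pb (edgeR adjusted p = 0.0273), and the strand setting of the counts is not given in the sources used here.

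In the other metals Slc5a2 passed no test against Ta with all libraries in the fit, and its libraries were spread wider than those of Ta. W libraries had 317 to 434 CPM in replicates 1 to 4 and 37.5 to 130 CPM in replicates 5 to 8. Of these, replicate 2 lay above every Ta library and replicates 5 to 8 below. Co libraries had 35.5, 106 and 509 CPM as lowest, median and highest, and 6 of 8 lay below every Ta library. Without Co replicate 2, the highest, the Co difference passed (log2 fold change -1.22; edgeR adjusted p = 0.0348). Al libraries had 33.1, 126.4 and 196 CPM, with 4 of 8 below every Ta library and none above, and the difference passed when only Al and Ta libraries were fitted (-0.96; edgeR adjusted p = 0.028). DU libraries had 87 CPM, 403 CPM and 613 CPM, with 4 above every Ta library and 2 below. The test over the 6 metals gave an edgeR adjusted p of 0.0108. Mean levels were 354 CPM in DU, 218 CPM in W, 153 CPM in Co, 122.1 CPM in Al and 107 CPM in Pb, and the Ta mean of 237 CPM lay between those of DU and W.

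Slc5a1, which recovers glucose late in the tubule, changed less. In Pb its lowest, median and highest values were 18.5, 22.5 and 30.0 CPM, against 19.2, 36.0 and 44.4 CPM in Ta. The groups overlapped, with only Pb replicate 4 below every Ta library. The log2 fold change was -0.57 ± 0.22 (SE; edgeR adjusted p = 0.0224), and without Pb replicate 4 it was -0.52 with an adjusted p of 0.05. Mean levels were 36.2 ± 3.91 CPM in W, 31.5 ± 8.04 CPM in Co and 28.7 ± 5.19 CPM in Al, against 34.9 ± 7.78 CPM in Ta (SD, n = 8 each), and none of these passed the test.

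In DU kidneys 1 library decided the result for Slc5a1. DU replicate 6, the library with high Lcn2 and Havcr1, had 80.01 CPM of Slc5a1, while the other 7 had 18.6 to 31.8 CPM and Ta had 19.2 to 44.4 CPM. With all DU libraries the log2 fold change was -0.26 ± 0.21 (SE; edgeR adjusted p = 0.448). Without DU replicate 6 it was -0.67 (edgeR adjusted p = 0.0016), and without DU replicates 5 and 6 it was -0.65 (edgeR adjusted p = 0.00389). The test over the 6 metals gave an edgeR adjusted p of 0.111 with all libraries and 0.000105 without DU replicate 6.

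Slc2a2, the exit route for glucose, passed no test. Its mean was 47.5 ± 18.2 CPM in W, 38.5 ± 11.4 CPM in Co, 44.1 ± 19.6 CPM in Al and 60.2 ± 33.2 CPM in DU (SD, n = 8 each), 45.3 ± 15.2 CPM in Pb (SD, n = 7), and 49.5 ± 19.3 CPM in Ta (SD, n = 8). Its log2 fold changes against Ta ran between -0.36 in Co and 0.28 in DU, each smaller than the spread between libraries. The 95% interval of the difference was -0.69 to 0.43 in Pb and -0.26 to 0.82 in DU.

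The lactate carrier Slc5a12 fell steeply in Pb kidneys. Its lowest, median and highest values were 1.08, 4.43 and 11.7 CPM in Pb and 20.6, 33.5 and 56.3 CPM in Ta. Every Pb library lay below every Ta library. The log2 fold change was -2.76 ± 0.78 (SE; edgeR adjusted p = 0.00255), or 6.76-fold lower.

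With all libraries in the fit, Slc5a12 passed no test against Ta in W, Co, Al and DU kidneys, although few libraries lay inside the Ta range. W replicates 1 to 4 had 72.1, 77.7, 50.3 and 46.5 CPM and W replicates 5 to 8 had 1.33, 8.94, 0.70 and 9.17 CPM, so the highest W library held 111 times the level of the lowest. Co libraries ran from 1.52 to 85.8 CPM with a median of 7.77 CPM, and 5 of 8 lay below every Ta library. Al libraries ran from 1.88 to 22.3 CPM, and 7 of 8 lay below every Ta library (log2 fold change -1.67 ± 0.70, SE; edgeR adjusted p = 0.0731). Without Al replicate 1 it was -1.93 (edgeR adjusted p = 0.0477), and with only Al and Ta libraries fitted it was -1.67 (edgeR adjusted p = 0.00426). DU libraries had 6.16, 71.5, 21.4, 65.01, 103.2, 18.9, 91.7 and 103.2 CPM, with 5 above every Ta library and 2 below. Over the 6 metals the edgeR adjusted p was 0.00115.

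**Figure D2:**
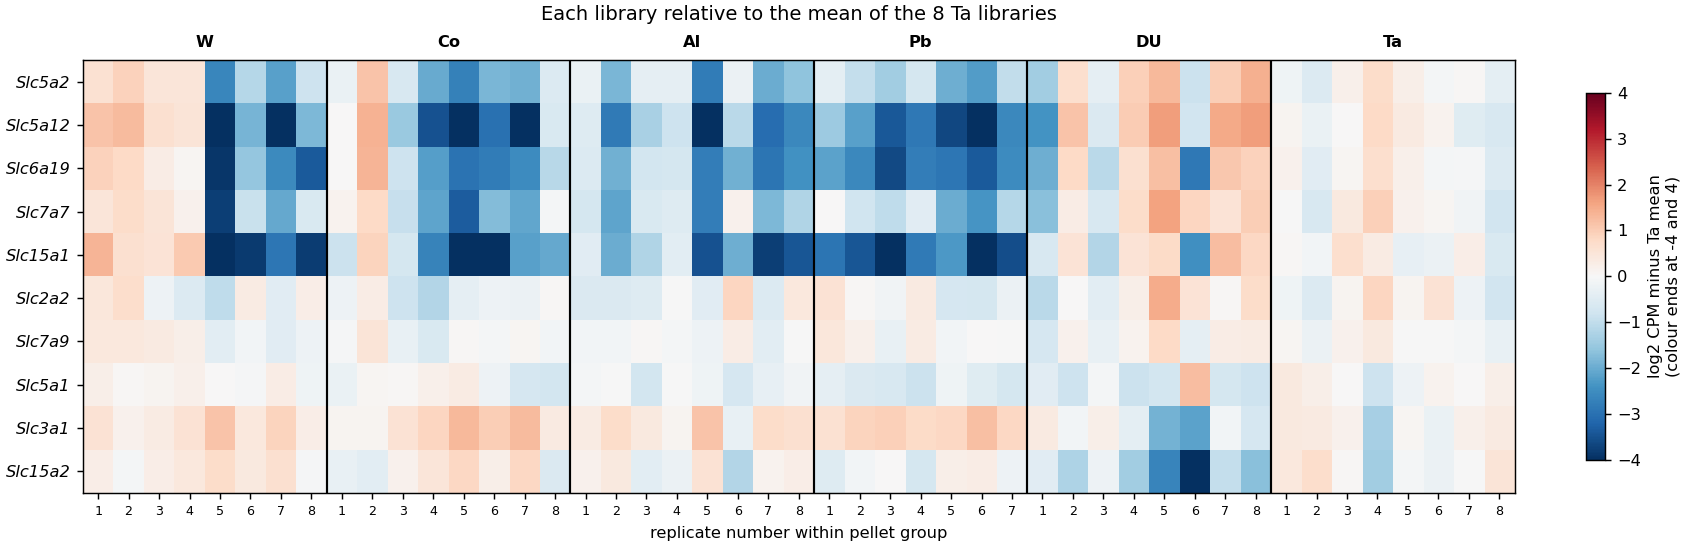
Log2 CPM of the 10 genes minus the Ta mean, for each of the 47 libraries in columns grouped by metal with Ta at the right; red is above and blue below the Ta mean, and the colour ends at -4 and 4. W replicates 5 to 8 are blue in Slc5a12, Slc6a19 and Slc15a1 while W replicates 1 to 4 are not.

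Slc6a19, the entry route for neutral amino acids, fell in Pb kidneys by about the same amount. Its lowest, median and highest values were 3.26, 5.997 and 9.19 CPM in Pb, against 27.8, 41.4 and 64.9 CPM in Ta, and the groups did not overlap. The log2 fold change was -2.82 ± 0.65 (SE; edgeR adjusted p = 0.000279), or 7.08-fold lower. In Al kidneys 7 of 8 libraries lay below every Ta library, with 5.37, 10.7 and 28.2 CPM as lowest, median and highest. The Al difference of -1.51 ± 0.58 (SE) missed the threshold with an edgeR adjusted p of 0.0502. DESeq2 gave an adjusted p of 0.0338 for it, and edgeR called it when any 1 of Al replicates 1, 3 and 4 or Ta replicate 8 was left out.

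W and Co kidneys held both high and low libraries of Slc6a19. W replicates 1 to 4 had 78 CPM, 71.4, 49.8 and 42.7 CPM, and W replicates 5 to 8 had 2.67, 13.9, 6.90 and 3.92 CPM. In Co, replicate 2 had 103.6 CPM, above every Ta library, and 6 of the other libraries lay below every Ta library. DU libraries ran from 5.54 to 94.4 CPM, 4 above and 3 below the whole Ta range. None of these 3 metals passed the test against Ta with all libraries.

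Slc7a7, which releases cationic amino acids to the blood, had 23.3, 59.4 and 121.1 CPM as lowest, median and highest in Pb, against 69.4, 121.7 and 230 CPM in Ta. The groups overlapped, and 5 of 7 Pb libraries lay below every Ta library. Its log2 fold change of -1.01 ± 0.51 (SE) did not pass the test (edgeR adjusted p = 0.089), and passed it without Pb replicate 1 (adjusted p = 0.0463) and with only Pb and Ta libraries fitted (adjusted p = 0.007). In Al the values were 17.7, 63.2 and 133.6 CPM and the log2 fold change was -1.03 ± 0.48 (SE; edgeR adjusted p = 0.115). In DU they were 37.1, 186 and 364 CPM and the log2 fold change was 0.51 ± 0.48 (SE; edgeR adjusted p = 0.523). The test over the 6 metals passed for Slc7a7 (edgeR adjusted p = 0.0245) and did not without DU replicate 5 (0.0756).

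The partners of the cystine carrier gave different results. Slc3a1, which encodes the partner protein rBAT, had 5758, 6752 and 8731 CPM as lowest, median and highest in Pb kidneys, against 1510, 4328 and 4945 CPM in Ta kidneys. Every Pb library lay above every Ta library. The log2 fold change was 0.80 ± 0.26 (SE; edgeR adjusted p = 0.00773), or 1.74-fold higher. In Co kidneys the values were 4030, 6219 and 9195 CPM, with 5 of 8 libraries above every Ta library, and the log2 fold change was 0.68 ± 0.25 (SE; edgeR adjusted p = 0.0397). That call was lost without any 1 of Co replicates 4, 5, 6 and 7 or Ta replicates 4, 5 and 6, with adjusted p of up to 0.0969.

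Slc3a1 had 4284 to 8445 CPM in W, with 5 of 8 libraries above every Ta library, and 3080 to 8248 CPM in Al, also with 5 of 8 above. Neither passed the test (edgeR adjusted p = 0.228 in W and 0.188 in Al). In DU it had 857, 3187 and 4814 CPM, with replicates 5 and 6 below every Ta library, and the log2 fold change was -0.45 ± 0.25 (SE; edgeR adjusted p = 0.233). Prepl, which overlaps Slc3a1 in the GRCr8 annotation, had a mean of 93.3 CPM in Pb and 80.98 CPM in Ta. In DU it averaged 56.9 CPM and fell, by a log2 fold change of -0.51 (edgeR adjusted p = 0.0104). Slc7a9, the carrier itself, passed no test with all libraries and no added covariate. It had 112 to 186 CPM in Pb and 111 to 178 CPM in Ta, and the 95% interval of its log2 difference in Pb was -0.22 to 0.41. Its group means lay between 130.7 CPM in Al and 148 CPM in DU.

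**Figure D3:**
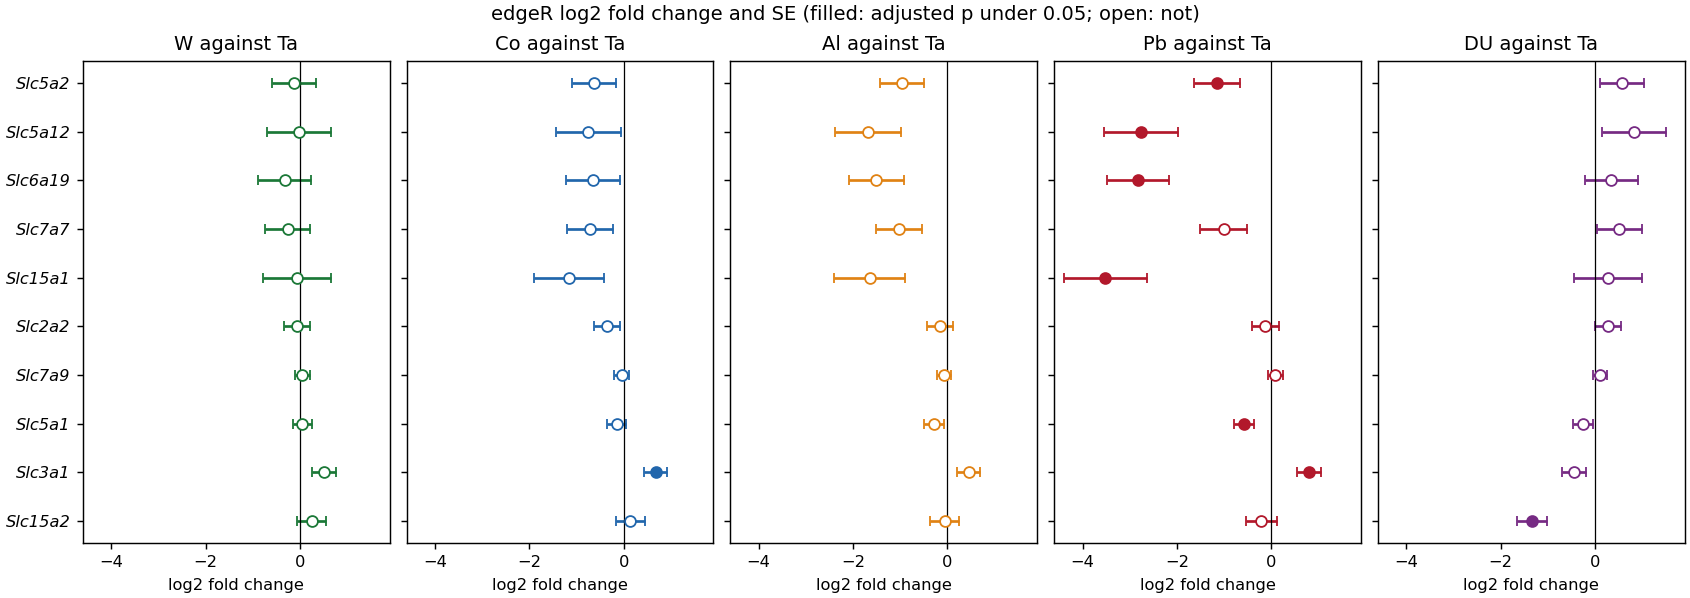
Log2 fold change of each gene in each metal against Ta from the edgeR fit, with bars of 1 SE; filled points passed an adjusted p of 0.05. In Pb, Slc5a12, Slc6a19 and Slc15a1 lie at -2.76, -2.82 and -3.52 and Slc3a1 at 0.80.

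Slc15a1, the early peptide carrier, had the steepest fall of the 10 genes in Pb kidneys, at low levels. Its lowest, median and highest values were 0, 0.65 and 1.54 CPM in Pb, against 5.08, 7.63 and 12.4 CPM in Ta, with no overlap. The log2 fold change was -3.52 ± 0.88 (SE; edgeR adjusted p = 0.00072), or 11.5-fold lower. The gene had a count of 0 in W replicate 5, Co replicate 6 and Pb replicate 3, which at 3 counts per library allows up to 0.133, 0.154 and 0.125 CPM. W replicates 1 to 4 had 20.2, 12.3, 11.4 and 16.1 CPM, and W replicates 5 to 8 had 0, 0.49, 0.99 and 0.49 CPM. Co libraries had 0 to 14.6 CPM, and Al libraries had 0.51 to 5.75 CPM (log2 fold change -1.65 ± 0.75, SE; edgeR adjusted p = 0.0991). Lnc004 overlaps Slc15a1 in the GRCr8 annotation. Only whole gene spans were compared, and whether reads of Lnc004 entered the Slc15a1 counts was not tested. PEPT1 is also a carrier of the gut. Of the 5 enterocyte markers read, Vil1, which the proximal tubule also makes, had a median count of 3530, Apoa4 had 16, Cdx2 had 2, and Fabp2 and Lct had 0. None of the 3 that were tested was called in any comparison by edgeR, and the part of gut RNA in the Slc15a1 level was not tested.

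Without Co replicate 2, the library highest in all early carriers, 3 more genes were called lower in Co kidneys by edgeR. Each library was left out in turn, and this one was singled out after its values were seen. Of 15868 tested genes, 2387 were then called higher and 2461 lower, against 2161 and 1928 with all libraries. Slc5a2 then had a log2 fold change of -1.22 (adjusted p = 0.0348), Slc6a19 of -1.42 (adjusted p = 0.0486) and Slc15a1 of -2.00 (adjusted p = 0.0415). With all Co libraries the values were -0.64, -0.66 and -1.16. Slc5a12 did not pass in Co with or without it.

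Slc15a2, the late peptide carrier, fell in DU kidneys. DU libraries had 133, 75.9, 156, 68.5, 28.8, 7.09, 93.3 and 55.9 CPM, against a lowest, median and highest of 68.6, 182 and 292 CPM in Ta. DU replicates 4, 5, 6 and 8 lay below every Ta library, and the other 4 lay inside the Ta range. Means were 77.3 ± 49.8 CPM in DU and 194 ± 69.9 CPM in Ta (SD, n = 8 each), a log2 fold change of -1.33 ± 0.32 (SE; edgeR adjusted p = 0.00304), or 2.51-fold lower. Without DU replicates 5 and 6, the libraries low in Slc7a13, it was -0.997 (edgeR adjusted p = 0.00709). When only DU and Ta libraries were fitted it was -1.33 with an edgeR adjusted p of 0.0526.

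In the other metals Slc15a2 passed no test against Ta. Its mean was 230 ± 45.8 CPM in W, 214 ± 79.6 CPM in Co and 186 ± 59.96 CPM in Al (SD, n = 8 each), and 168 ± 40.7 CPM in Pb (SD, n = 7). The 95% interval of the log2 difference from Ta in Pb was -0.84 to 0.43. The early and late peptide carriers thus gave log2 fold changes of -3.52 and -0.21 in Pb, and of 0.28 and -1.33 in DU; the difference between the carriers was not tested.

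Counted by library, 3 of the 10 genes had every Pb library below every Ta library (Slc5a12, Slc6a19 and Slc15a1), where 13.9% of all tested genes did, and 1 had every Pb library above (Slc3a1), where 13% did. Slc5a2, Slc5a12, Slc6a19 and Slc15a1 shared another arrangement, chosen after the values were seen, with at least 1 library above and at least 4 below every Ta library. That held for these 4 of 10 genes in W, where 1.48% of all tested genes had it, and for the same 4 in Co, where 2.44% had it. In W the low libraries were replicates 5 to 8 for all 4 genes. The within-group SD of log2 CPM in W was 2.60 for Slc5a12, 2.997 for Slc15a1, 1.94 for Slc6a19 and 1.36 for Slc5a2, beside a median of 0.30 over 13533 genes of at least 1 CPM. In Ta it was 0.22 to 0.65 for the 10 genes, beside a median of 0.28.

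**Figure D4:**
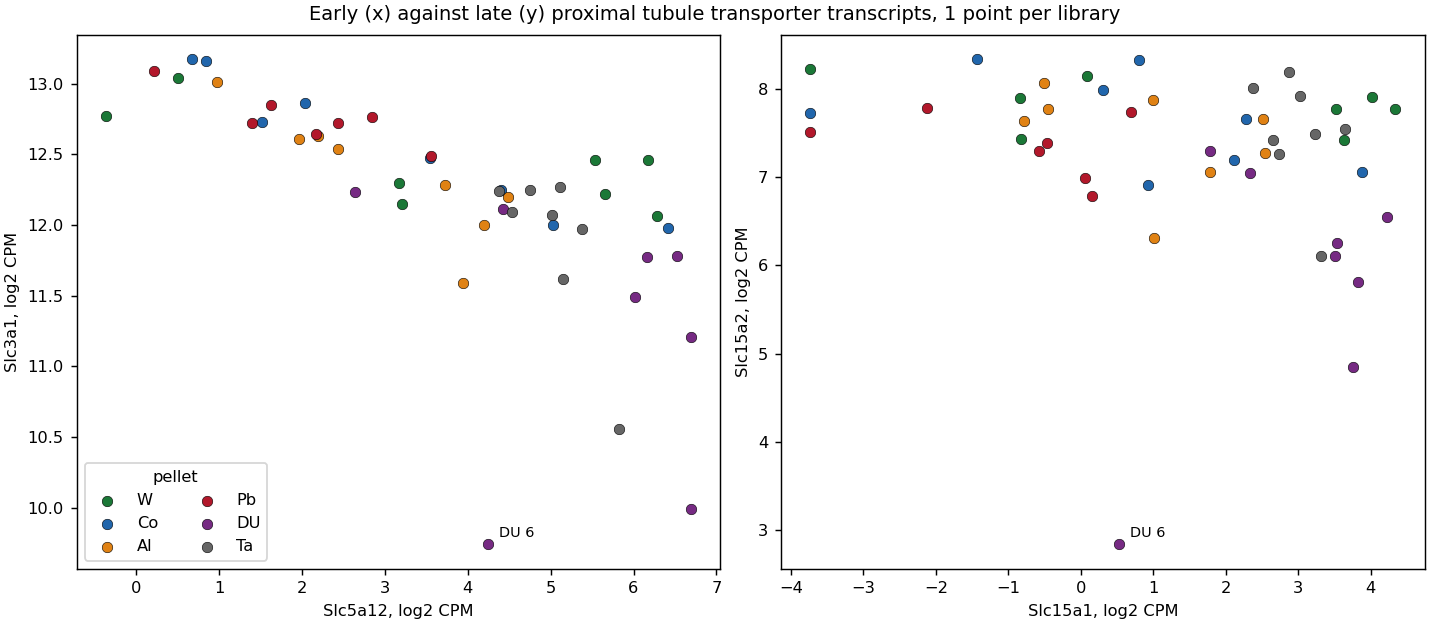
Log2 CPM of an early against a late gene in each library, coloured by metal: Slc5a12 against Slc3a1, and Slc15a1 against Slc15a2. Libraries low in Slc5a12 tend to be high in Slc3a1 (Spearman rho -0.837 over 47 libraries, -0.644 with group means taken out). For Slc15a1 with Slc15a2 rho is weaker, at -0.341 (-0.346 with group means taken out), and DU replicates 5 and 6 are low in Slc15a2.

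Levels of the early genes moved together from library to library. Across the 47 libraries, after group means were taken out, Spearman's rho was 0.974 for Slc5a2 with Slc5a12, 0.928 for Slc5a12 with Slc6a19 and 0.898 for Slc6a19 with Slc15a1. Slc3a1 and Slc15a2 formed another pair, with a rho of 0.92. Slc7a7 ran against both, at -0.815 with Slc3a1 and -0.804 with Slc15a2. Slc5a1 had rho between -0.357 and 0.326 with the other 9 genes. Slc7a9 went with Slc5a2 (0.762) more than with its partner Slc3a1 (-0.389). These values describe the libraries, which share depth and RNA composition among genes.

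**Figure D5:**
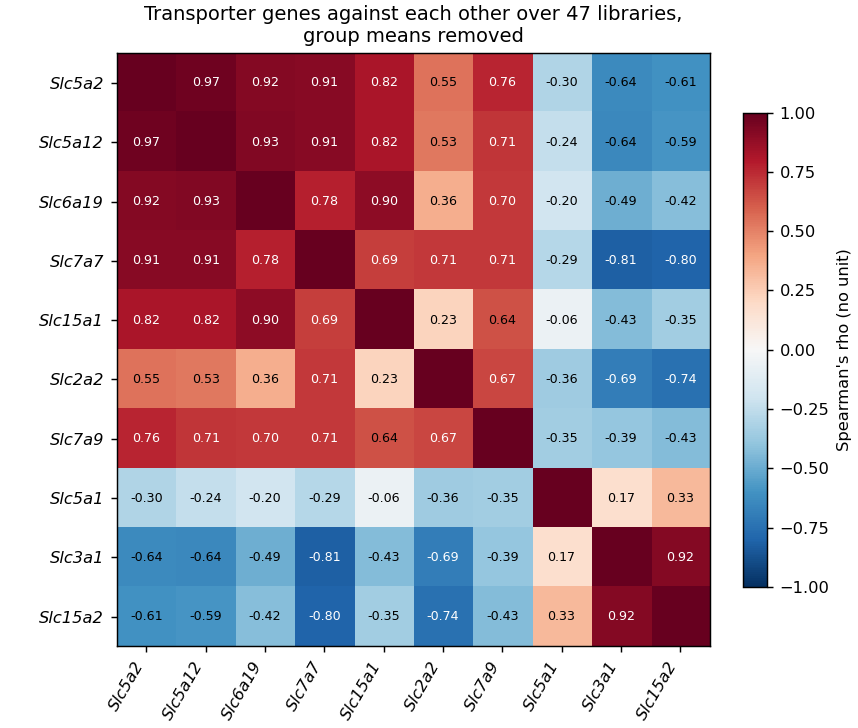
Spearman's rho between each pair of the 10 genes over 47 libraries, with group means taken out; red is positive and blue negative. Slc5a2, Slc5a12, Slc6a19, Slc7a7 and Slc15a1 form one block and Slc3a1 with Slc15a2 another.

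Markers of the tubule segments, none of them among the 10 genes, moved with these levels. The mean log2 CPM of 10 S1 and S2 markers was 7.31 to 8.06 in Pb and 8.69 to 9 in Ta, with no overlap. It was 7.69 to 8.59 in Al, below every Ta library. W replicates 1 to 4 lay above every Ta library and W replicates 5 to 8 below. Co replicate 2 lay above every Ta library and Co replicates 3 to 8 below. The labels name no batch for these libraries. Across the 47 libraries, rho with this marker mean was 0.944 for Slc6a19, 0.912 for Slc15a1, 0.847 for Slc5a12 and 0.831 for Slc5a2. Lists of cells outside the tubule also tracked these genes. With 6 fibroblast and muscle markers rho was 0.84 for Slc5a12, 0.796 for Slc5a2, 0.754 for Slc6a19 and 0.752 for Slc15a1, and -0.912 for Slc3a1. With 6 endothelial markers it was 0.792, 0.731, 0.764 and 0.784 for the same 4 early genes in that order. With 6 immune cell markers it was 0.73, 0.754, 0.621 and 0.582. For Slc7a7 rho was 0.808 with the immune cell markers and 0.671 with the S1 and S2 markers. The part of cells outside the tubule in the carrier levels was not tested. The S1 and S2 list itself was mixed in Pb, with 6 of 10 lower and 2 of 10 higher, the transporters Slc22a12 and Slc17a1. Of all tested genes, 29.2% were lower and 24.5% higher in Pb.

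The mean of 5 S3 markers was 7.76 to 8.72 in Pb, 2.49 to 8.07 in DU and 5.87 to 8.35 in Ta. Spearman's rho with it was 0.908 for Slc3a1 and 0.807 for Slc15a2. Of these 5 markers, 1 rose in Pb (Slc22a7), and none was called in DU by edgeR. Slc2a2 had a rho of 0.722 with the mean of 6 tubule injury markers (0.831 within groups), -0.71 with S3 and 0.621 with 6 immune cell markers. Slc15a2 ran against the injury markers, at -0.747. Slc5a1, the late glucose carrier, followed neither segment list (0.253 with S3 and 0.156 with S1 and S2).

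When the S1 and S2 marker mean was added to the fit, 3 of the 10 genes were called in Pb by edgeR. Slc5a1 was at -0.92 (adjusted p = 0.000334), Slc6a19 at -0.90 (adjusted p = 0.0288) and Slc7a9 at 0.41 (adjusted p = 0.0231), while Slc5a2 was at -0.05 (adjusted p = 0.938). The calls of Slc3a1 at 0.67 (adjusted p = 0.076), Slc15a1 at -1.42 (adjusted p = 0.0556) and Slc5a12 at -1.33 (adjusted p = 0.0756) were lost. That fit called 42.3% of all tested genes in Pb. Markers of other cells also differed in Pb. For 6 endothelial markers the mean log2 CPM ran from 2.26 to 3.23 in Pb libraries, against 4.70 to 5.17 in Ta libraries. For 6 podocyte markers it ran from 2.26 to 3.34 in Pb, against 4.43 to 5.46 in Ta, and all 6 genes of each list fell. All 6 fibroblast and muscle markers fell in Pb too, with a mean of 3.58 to 3.97 in Pb and 5.23 to 6.65 in Ta. In the same comparison 3 of the 6 immune cell markers fell, as did 29.2% of all tested genes. The endothelial mean was 3.06 to 3.53 in W replicates 5 to 8 and 4.77 to 5.24 in W replicates 1 to 4, and its part in the spread of the early carriers was not tested. A measure of RNA make-up, the mean log2 CPM of 69 genes of ribosomal proteins less the mean of 30 genes that encode giant proteins, was 3.42 ± 0.47 in Pb (SD, n = 7) and 1.6 ± 0.30 in Ta (SD, n = 8). It ran from 2.995 to 4.341 in Pb libraries and from 1.127 to 2.027 in Ta libraries, with no overlap. With that measure in the fit, 0 of the 10 genes and 2.98% of all tested genes were called in Pb by edgeR. The log2 fold changes of Slc5a12, Slc6a19, Slc15a1 and Slc3a1 were -1.09, -0.66, -0.73 and 0.996. The S1 and S2 marker mean did not overlap between Pb and Ta either, so neither fit can separate the metal from its covariate. All DU libraries also lay above every Ta library in the measure of RNA make-up, and the same limit holds there. With it in the fit Slc15a2 was at -0.89 in DU (edgeR adjusted p = 0.171).

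Other genes of the same pathways were read from lists chosen by function. As background for these counts, 53.7% of all tested genes were called in Pb by edgeR, 24.5% higher and 29.2% lower. The share called was 25.8% in Co, 25.2% in Al, 15.3% in DU and 1.78% in W. Of 8 tested glucose and fructose genes, 5 rose and 0 fell in Pb. Pdzk1ip1, the membrane protein MAP17 that SGLT2 needs for activity, rose by a log2 fold change of 0.78, Slc5a10, a sodium-coupled mannose and fructose carrier, by 0.82, and Khk, the fructose kinase, by 1.09 (edgeR adjusted p = 4.28e-05, 0.000412 and 0.000522). Slc5a2 fell in the same libraries. In Co 3 of 8 rose, namely Pdzk1ip1 (0.47), Khk (0.74) and Slc5a11 (0.57), a sodium-coupled inositol carrier. In DU Pdzk1ip1 rose (0.60) and Slc5a10 fell (-0.77), and 0 of 8 were called in W or Al by edgeR. The list's median log2 fold change in Pb was 0.73, beside -0.07 for all tested genes.

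Of 15 tested amino acid genes, 1 rose and 7 fell in Pb. The falls with the smallest p were those of Slc43a2 (-1.48), a carrier of neutral amino acids, Slc36a1 (-1.22), a proton-coupled amino acid carrier, and Slc7a8 (-2.60), which exchanges neutral amino acids at the blood side. Their edgeR adjusted p were 1.22e-06, 6.29e-05 and 8.05e-05, and the gene that rose was Slc6a18 (0.85), a carrier of glycine and other neutral amino acids. In DU 1 rose, Slc3a2 (0.57), the partner of the Slc7a7 product, and Slc6a20 (-0.80), a proline carrier, fell. In Co 1 fell (Slc7a6, -0.78), in Al 1 fell (Slc43a2, -0.74), and in W 0 were called by edgeR.

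Among 8 genes of peptide handling, 1 rose and 3 fell in Pb, 0 rose and 3 fell in DU, and Ggt1 alone rose in Co (0.79) and in Al (0.65). Ggt1, the brush border enzyme that breaks down glutathione, rose by 1.13 in Pb, where the dipeptidase Dpep1 fell by 2.05 and Slc15a4 by 0.42 on the log2 scale. In DU the brush border peptidases Mme (-1.41), Dpp4 (-0.79) and Anpep (-0.92) fell. None of the 8 was called in W by edgeR. Of 5 monocarboxylate genes, Slc5a8, the high-affinity relative of Slc5a12, fell in Co (-1.09), Al (-0.89) and Pb (-1.55), and in Pb Slc16a7 (-1.19) and Slc16a1 (-2.70) also fell and Bsg rose. No gene of this list was called in W or DU by edgeR.

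Of 9 tested genes that drive or regulate these carriers, 2 rose and 3 fell in Pb. Atp1b1, the sodium pump's beta subunit, was at -0.62, the sodium-proton exchanger Slc9a3 at -1.87 and Fxyd2, a regulator of the pump, at 0.99 (edgeR adjusted p = 3.08e-07, 2.28e-05 and 4.24e-05). Hnf4a, which encodes the factor whose letters were searched above, fell in Pb (-0.65, edgeR adjusted p = 0.00228). Among the 10 promoters those letters were found only in that of Slc3a1, which rose in Pb. A link of Hnf4a to the carrier levels was not tested. In DU the scaffold protein gene Slc9a3r1 fell (-0.43; edgeR adjusted p = 0.0113). In Co 2 rose and 1 fell, in Al 1 rose and 1 fell, and in W 0 were called by edgeR.

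For each gene up to 3 genes with the most similar pattern over the 47 libraries are given, found by Spearman's rho among 12902 genes with a mean of at least 1 CPM. They were Myrf (0.961), Ctsa (0.958) and Epb41l3 (0.949) for Slc5a2, and Myrf (0.971), Slc7a8 (0.952) and Ctsa (0.942) for Slc5a12. Slc6a19 was most like Slc34a3 (0.968), a phosphate carrier, Slc22a8 (0.963), an organic anion carrier, and Fam151a (0.962). Slc15a1 was most like Slc22a8 (0.93), Slc22a23 (0.927) and Slc34a3 (0.924). For Slc7a7 they were the lysosomal proteases Ctsh (0.957), Ctsb (0.95) and Ctsa (0.936).

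For the late genes they were Akr1c12l1 (0.971), Slc6a18 (0.971) and Cth (0.97) for Slc3a1, and the brush border peptidases Mep1a (0.955) and Mme (0.95) with Wwp1 (0.944) for Slc15a2. The highest values were smaller for the other genes. They were 0.823 for Slc7a9 (Glmp, then Evl), 0.845 for Slc5a1 (Eif4g2, then Slc1a1 and Zbed4) and 0.871 for Slc2a2 (C5, then Tsc22d1 and Mab21l3).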

How the data were processed

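Kidney RNA of 47 rats was measured by RNA sequencing, in 6 pellet groups taken from the labels. The authors deposited 1 table of raw read counts, with a row per gene and a column per animal. Per the submitters' processing notes, the authors used STAR 2.7.2a, featureCounts of Subread 1.6.4 and the mRatBN7.2 genome; annotation, strand setting and treatment of reads with several positions are not given in the sources used here. Of 22554 lines, 29 that name no gene (spilled coordinates of 5 very long genes) were left out.

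Genes were kept by filterByExpr (15868 of 22525), scaled by TMM and tested with edgeR 4.0.16 (R 4.3.3) in a single model of all 6 groups, by the two-sided quasi-likelihood test. Benjamini-Hochberg adjustment was made in each comparison, at a threshold of 0.05. CPM use TMM-scaled totals, log2 CPM a prior count of 2, and SE is the log2 fold change over the root of F. The fit was also run on simulated counts in which each gene varied independently. Variation shared among genes, or within blocks of libraries of a group, was not covered by that run. The 10 carrier genes and the gene lists were chosen with earlier results of these data known. The 10 are all named, with up to 3 genes per function list and comparison by smallest p and the 3 most alike genes for each by Spearman's rho. Slc6a18, Bsg, Hnf4a, Slc22a7, Slc22a12 and Slc17a1 are outside this rule and were named after their values were seen. Some genes of these lists are not reported here. Other settings were DESeq2 1.42.0, RLE and upper quartile factors, other filters, added covariates, 2-group fits and leaving out libraries. Same-numbered libraries of different metals did not deviate together (median correlation 0.01 over 115 pairs), and every library was counted as its own animal. Blocks of neighbouring numbers were not tested.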

Additional observations from a re-analysis of the deposited data

Results flagged for a closer look

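In 5 of 60 sets of libraries (10 genes in 6 metals) the highest or lowest library stood apart by Dixon's criterion. It flags about 1 in 20 sets by chance where values are normally distributed. Here it was applied to CPM without a log, and the rate for such values was not tested. In 4 of these it was Co replicate 2, the highest of the 8 Co libraries, with 509 CPM of Slc5a2, 85.8 CPM of Slc5a12, 103.6 CPM of Slc6a19 and 14.6 CPM of Slc15a1. The 4 genes vary together across libraries, so these are not 4 separate events. In the other it was DU replicate 6, with 80.01 CPM of Slc5a1.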

How the results depend on the processing

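No called value changed sign under any setting run. RLE factors, upper quartile factors and both filters left the number of the 10 carrier genes called as it was in each comparison. The number of genes called in W (283) was 166 with upper quartile factors, 117 with no filter, 562 with a strict filter, 764 with DESeq2 and 1 without Ta replicates 4 and 6, left out after seeing the data. Carriers called in Al (0) became 5 with only the Al and Ta libraries fitted (29.7% of all genes called) and 1 with DESeq2 (2242 genes called higher and 2124 lower). With the replicate number as a block, edgeR called 3 carriers in Al, where 26.1% of all genes were called. They were Slc5a12 at -1.85, Slc6a19 at -1.70 and Slc15a1 at -1.97. Among the 47 libraries, 7 correlated best with a library of their own number in another metal. That check takes equal numbers only. Whether neighbouring numbers, such as 1 to 4 or 5 to 8, go together was not tested. In DU the count (1) became 0 with only the DU and Ta libraries, where 11.7% of all genes were called. It became 2 without DU replicates 5 and 6, left out after seeing the data, where 1899 of 15868 genes were called. In Co the count (1) became 0 with the S1 and S2 marker mean (20.2% of all genes called) and 0 with the ribosomal minus large-protein measure (0.674%). Without Ta replicates 4 and 6 it was also 0, with 1557 genes called higher and 1225 lower. In Pb the count (6) became 7 with only the Pb and Ta libraries, where 55.2% of all genes were called. It became 3 with the S1 and S2 mean (42.3%) and 0 with the ribosomal minus large-protein measure (2.98%). Both measures lay wholly apart between Pb and Ta, so these fits cannot separate metal from measure. Genes called in Al (3996) were 2278 with the S1 and S2 mean. With the ribosomal minus large-protein measure, genes called were 473 in Pb, 560 in DU, 306 in Al, 107 in Co, 6 in W, 4314 among 6 metals and 4455 among 5; carriers called were 0 in DU and 3 in each test of several metals. Leaving out 1 library at a time, carriers called ranged 0 to 0 in W, 0 to 4 in Co, 0 to 2 in Al, 5 to 7 in Pb, 1 to 2 in DU and 6 to 8 in each test of several metals. Genes called ranged 3 to 536 in W, 3038 to 4848 in Co, 3069 to 4438 in Al, 8084 to 8504 in Pb, 1815 to 2967 in DU, 8796 to 9421 among 6 metals and 7745 to 8648 among 5. DESeq2 was not run for the test among 5 metals. Depth sets how low a level of Slc15a1 could be read in the 3 libraries with counts of 0. Their totals were 24990599 in W replicate 5, 22804509 in Co replicate 6 and 27173567 in Pb replicate 3, inside the range of all libraries.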
